A study of Mus musculus with 12 samples.

Results

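The integrated stress response and the unfolded protein response were followed through 39 genes of 54532 in a count table of 12 mouse tumour libraries. The members were the table rows whose gene symbol stood in a list of 39 symbols, and all 39 had enough counts to be tested. They were divided by role into 9 factors of the integrated stress response, 10 ATF4 targets of amino acid synthesis and transport, 4 sensors and effectors of endoplasmic reticulum (ER) stress, 11 ER chaperones and 5 genes of ER-associated degradation. Ddit3 has a second row in the table, which held 0 counts in every library, and the row with counts was used. Of the exon bases of the Ddit3 row used, 10.9% are shared with other genes. The largest overlap is with a second Ddit3 gene on the same strand.

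The tumours grew from B16F10, a pigmented mouse melanoma line that was wild type for the gene under study. The cells were injected intradermally into the legs, left and right, of mice 8 to 12 weeks old that were labelled male. The 6 iKO libraries came from Trex1 fl/fl hosts and the 6 Ctrl libraries from Trex1 wt/fl hosts. All hosts carried the tamoxifen-dependent recombinase CreERT2 at 1 copy of the Rosa26 locus (R26CreERT2-ki/wt), which is not limited to a cell type. All received 1 mg of tamoxifen on each of 3 days from day 5, so that the Ctrl hosts kept 1 intact copy of Trex1, a DNA exonuclease of the cytosol. Tumours were taken on day 14 and sorted against CD45, a leukocyte protein, and CD31, an endothelial protein. The comparison asks how loss of Trex1 from the host affects the sorted tumour. The labels do not tie libraries to mice, so p-values reflect the spread among libraries, which may be partly or wholly technical.

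The integrated stress response begins with kinases that phosphorylate the translation factor eIF2. This lowers protein synthesis in general while it raises translation of ATF4, a transcription factor whose targets make, import and charge amino acids and, under lasting stress, include the pro-apoptotic factor CHOP (Ddit3). The unfolded protein response starts at the ER membrane, where PERK (Eif2ak3), IRE1 (Ern1) and ATF6 sense unfolded proteins. PERK feeds into eIF2 and ATF4, while IRE1 splices Xbp1 RNA and ATF6 is cleaved to an active factor, and both of these induce chaperones and degradation genes. Counts per gene show neither Xbp1 splicing nor ATF4 translation.

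Trex1 was listed at 0 counts in all 12 libraries, so the knockout could not be checked from its own transcript. Library totals were 29.8 to 35.5 M counts in iKO and 34.3 to 45.8 M in Ctrl. The 7 melanoma markers summed to between 15053 and 21454 CPM (counts relative to the library total, TMM-scaled) in iKO against 21548 to 21937 CPM in Ctrl, and 6 of the 7 passed the test as lower in iKO. All 12 leukocyte markers passed it as higher, with sums of 213 to 2360 CPM in iKO and 70.7 to 250 CPM in Ctrl, although the sort selected against CD45. Ptprc, which encodes CD45, lay between 17.4 and 345 CPM in iKO against 0.158 to 15.6 CPM in Ctrl. iKO 1 stood apart from the 5 other iKO libraries with the leukocyte sum of 213 CPM and the melanoma sum of 21454 CPM, and Ctrl 5 held the Ctrl leukocyte sum of 250 CPM. Xist, the RNA of the inactive X chromosome, was at 219 CPM in iKO 2 and 117 CPM in iKO 3 while the labels give male hosts, and no other library exceeded 8.37 CPM.

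Most of the 39 genes were lower in tumours of iKO hosts. By edgeR's quasi-likelihood test, with p-values adjusted over the 16164 genes tested and 0.05 as threshold, 27 members fell, 4 rose and 8 did not pass. Over all tested genes, 21.4% fell, 25% rose and 46.4% changed in either direction. The median log2 fold change, iKO over Ctrl, was -0.43 over the members and 0.02 over all tested genes. Over the 7 melanoma markers it was -0.42, with 6 of the 7 called lower. In 14 members every iKO library lay below every Ctrl library, against 11.1% of all tested genes, and in 1 member, Ern1, every iKO library lay above, against 11.8%. Falls were more common among well-expressed genes: 29% of genes with a mean of 10 to 100 CPM fell, where 15 members lie, 37.4% of those with 100 to 1000 CPM, where 22 lie, and 55.1% of those above, where 2 lie.

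**Figure D1:**
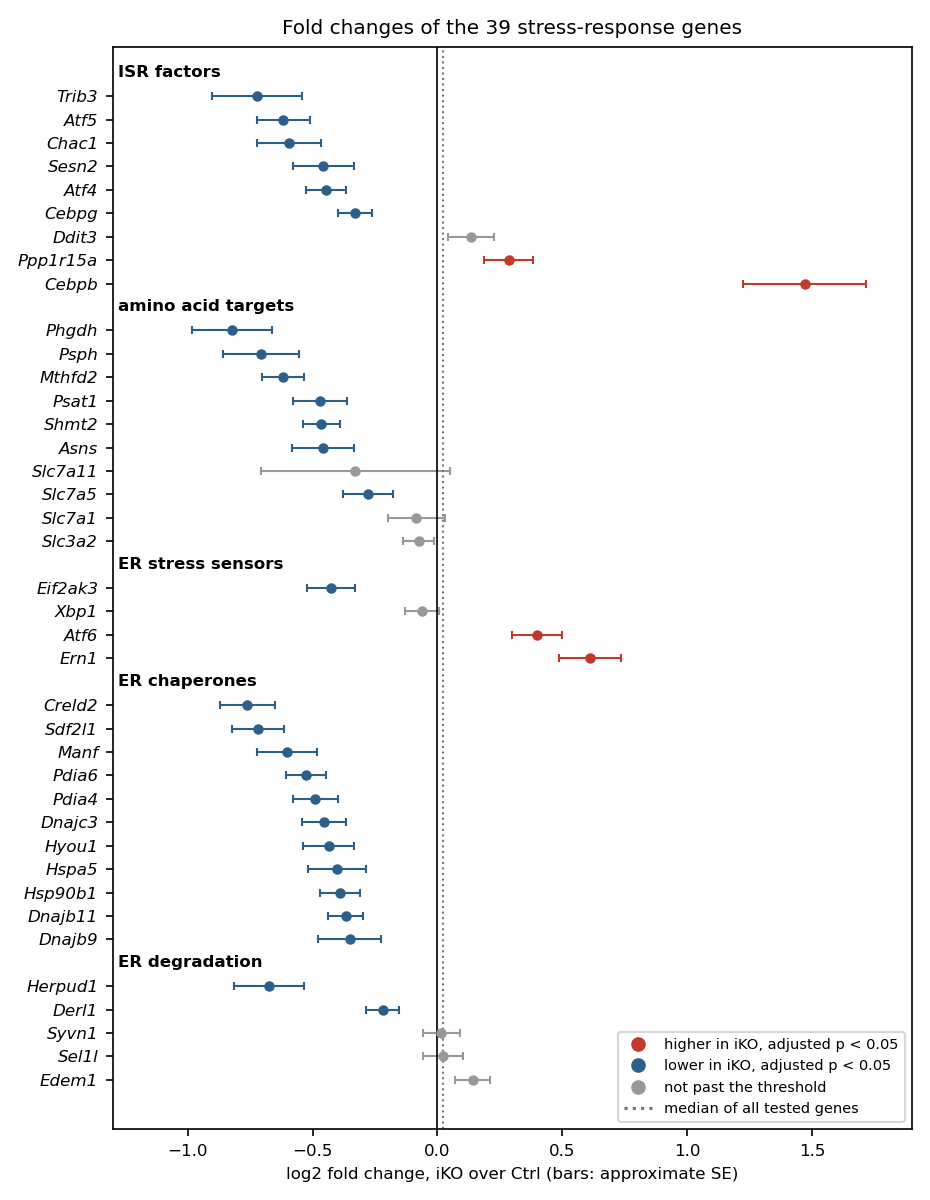
Log2 fold change of each of the 39 genes (x axis, iKO over Ctrl) by role group, with bars for the approximate SE and colour for the call of edgeR's test. All 11 ER chaperones and 7 of 10 amino acid targets lie to the left of 0 as called falls, and the 4 called rises are Cebpb, Ern1, Atf6 and Ppp1r15a.

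The factors of the integrated stress response moved in both directions: of 9, 6 fell, 2 rose and 1 did not pass, with a median log2 fold change of -0.45. The shares over all tested genes were 21.4% falls and 25% rises. Atf4, which encodes the central transcription factor of the response, had a lowest, median and highest level of 341, 369 and 482 CPM in iKO, against 479, 521 and 565 CPM in Ctrl. The groups overlapped through iKO 1 alone, which reached just above the lowest Ctrl library. Its log2 fold change was -0.45 ± 0.08 (SE, 6 libraries a group here and below; edgeR, adjusted p = 0.00053). Per kilobase of transcript, Atf4 averaged 163 CPM in iKO and 223 CPM in Ctrl, the highest of the 9 factors in both groups.

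Atf5, a related factor that is translated under the same control, had 65.6, 73.8 and 109 CPM in iKO as lowest, median and highest, against 109.5, 117 and 135 CPM in Ctrl. Every iKO library lay below every Ctrl library, with iKO 1 close to the lowest Ctrl value. Its log2 fold change was -0.62 ± 0.11 (edgeR, adjusted p = 0.00045). Cebpg, which pairs with ATF4 on amino acid response elements, ranged over 70.6, 73.7 and 92.0 CPM in iKO and 89.1, 97.6 and 103 CPM in Ctrl. The ranges overlapped through iKO 4, and Cebpg changed by -0.33 ± 0.07 (edgeR, adjusted p = 0.0016). Trib3, a pseudokinase that ATF4 induces and that restrains it, fell further, by 0.72 ± 0.18 on the log2 scale (edgeR, adjusted p = 0.0064). Its iKO libraries spanned 57.1 to 144 CPM and its Ctrl libraries 136 to 157 CPM. Chac1, an enzyme that breaks down glutathione, changed by -0.59 ± 0.13 (edgeR, adjusted p = 0.0020), and Sesn2, a sestrin that restrains mTORC1, by -0.46 ± 0.12 (edgeR, adjusted p = 0.0072). In iKO 1, Sesn2 stood at 69.1 CPM, above all Ctrl libraries, while the 5 other iKO libraries lay below all of them.

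Ddit3, the gene of CHOP, did not follow Atf4 past the threshold. It had 52.0, 60.4 and 69.6 CPM in iKO as lowest, median and highest, against 49.0, 54.1 and 69.0 CPM in Ctrl. The groups overlapped over nearly their whole ranges, with 5 of 6 iKO libraries above the Ctrl median. The log2 fold change was 0.13 ± 0.09 (edgeR, adjusted p = 0.25), and it was 0.23 without Ctrl 5, the highest Ctrl library, where the adjusted p was 0.034.

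Cebpb, the gene of the C/EBPβ factor that serves in stress, in myeloid cells and in inflammation, showed the largest rise among the 39 genes. Its lowest, median and highest levels were 13.4, 34.9 and 42.3 CPM in iKO and 9.11, 10.9 and 16.9 CPM in Ctrl. iKO 1 was the low iKO library and Ctrl 5 the high Ctrl library, and these 2 were the overlap between the groups. The log2 fold change was 1.47 ± 0.25 (edgeR, adjusted p = 0.00055). Of its exon bases, 20.7% are shared with Tmem189 on the opposite strand, and the libraries kept no strand. The leukocyte marker sums were 213 CPM in iKO 1 and 250 CPM in Ctrl 5. The leukocyte score is the mean log2 CPM of the 12 leukocyte markers. With this score as a covariate Cebpb was at -0.17 and had no call (edgeR, adjusted p = 0.76). The score nearly followed the groups, so that fit cannot tell leukocyte content from host genotype, and the cause of the rise was not tested. Ppp1r15a, the GADD34 subunit that brings a phosphatase to eIF2 and ends the response, rose by 0.28 ± 0.10 (edgeR, adjusted p = 0.027), with 4 of 6 iKO libraries above all Ctrl libraries. This call was lost without iKO 1 (adjusted p = 0.053), iKO 4 (0.061) or Ctrl 6 (0.052).

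**Figure D2:**
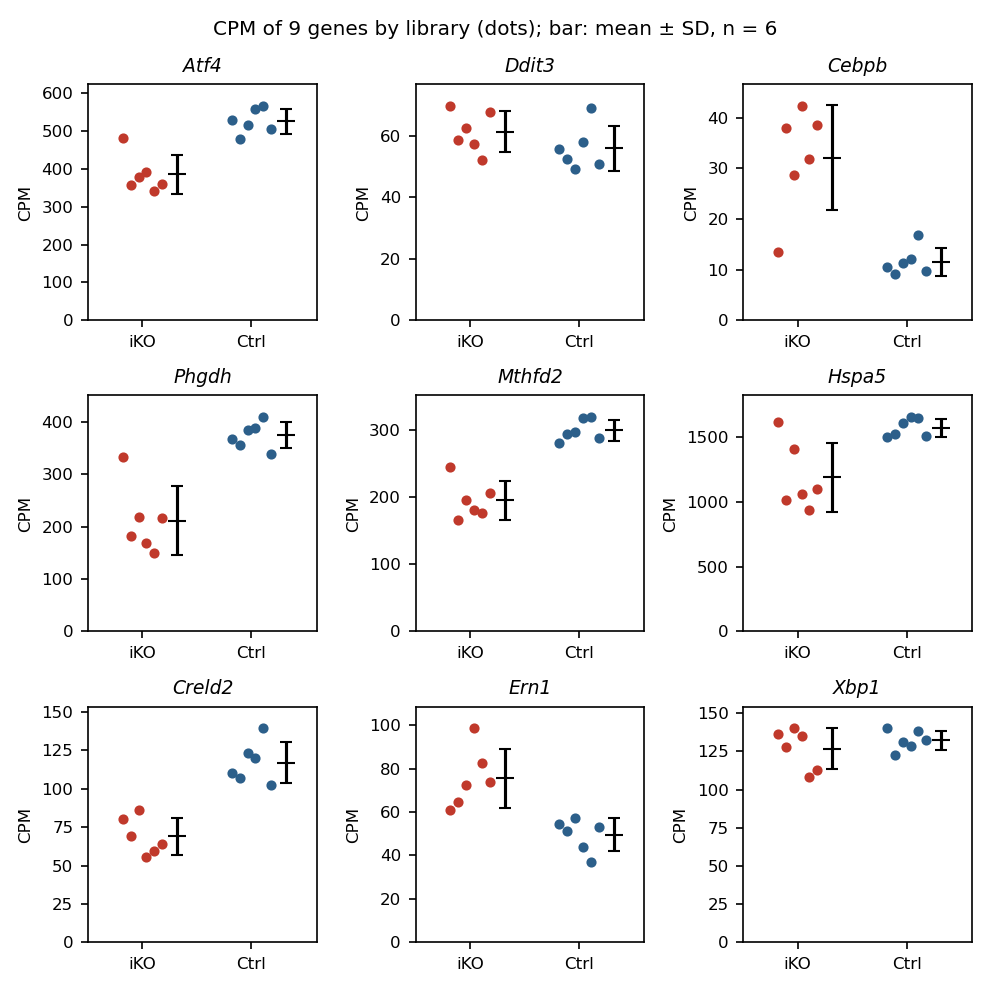
CPM (y axis, from 0) of 9 genes in each library, with dots ordered from library 1 to 6 within each group and bars for the mean ± SD of 6 libraries, iKO on the left and Ctrl on the right. The first iKO dot is that group's highest for Atf4, Phgdh, Mthfd2 and Hspa5 and its lowest for Cebpb and Ern1, while Ddit3 and Xbp1 overlap between the groups.

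Of the 10 ATF4 targets of amino acid metabolism, 7 fell, none rose and 3 did not pass, and their median log2 fold change was -0.46. Among all tested genes 21.4% fell and 25% rose, with 37.4% falls at a mean of 100 to 1000 CPM. All 6 enzymes of serine, one-carbon and asparagine synthesis fell, as did 1 of 4 transporters, and the difference between enzymes and transporters was not tested. Without iKO 1 and Ctrl 5, 9 of the 10 fell, the transporters Slc7a11 and Slc7a1 among them. In that fit 3331 of 16429 tested genes fell. Summed over the 10 genes, levels were 1860 to 2927 CPM in iKO and 2858 to 2964 CPM in Ctrl, with iKO 1 at 2927 CPM and the 5 other iKO libraries at 2334 CPM or less. In a bulk library, fewer cells of a type and less RNA per cell cannot be told apart, so these are levels per sorted sample.

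Phgdh catalyses the step that commits a glycolytic intermediate to serine. It had 149, 199 and 333 CPM in iKO as lowest, median and highest, against 339, 376 and 409 CPM in Ctrl. The groups did not overlap, and only iKO 1 came near Ctrl. The log2 fold change of -0.82 ± 0.16 was the largest fall among the 39 genes (edgeR, adjusted p = 0.0014). Psat1, the aminotransferase of the next step, changed by -0.47 ± 0.11 (edgeR, adjusted p = 0.0028), with every iKO library below every Ctrl library.

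Psph, the phosphatase of the last step, had 33.1, 41.2 and 70.8 CPM in iKO, against 66.8, 74.3 and 85.5 CPM in Ctrl, again as lowest, median and highest. iKO 1 fell within the Ctrl range and the other iKO libraries fell below it. Psph changed by -0.71 ± 0.15 (edgeR, adjusted p = 0.0023), and 10.4% of its exon bases are shared with Cct6a on the opposite strand. All 3 enzymes of serine synthesis thus passed the test as lower.

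The mitochondrial one-carbon enzymes showed the smallest p-values of the amino acid group. Mthfd2, a folate dehydrogenase, had 166, 189 and 245 CPM in iKO as lowest, median and highest, against 279.8, 295 and 319 CPM in Ctrl. No iKO library reached the Ctrl range, and Mthfd2 changed by -0.62 ± 0.08 (edgeR, adjusted p = 8.2e-05). Shmt2, which turns serine into glycine and a folate-bound carbon, had 151, 194 and 217 CPM in iKO and 249, 263 and 274 CPM in Ctrl. Its groups were also apart, including iKO 1, and it changed by -0.47 ± 0.07 (edgeR, adjusted p = 0.00025).

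Asns, asparagine synthetase, lay between 155 and 294 CPM in iKO against 273 to 292 CPM in Ctrl. iKO 1 was above all Ctrl libraries and the 5 other iKO libraries were below them. The log2 fold change was -0.46 ± 0.12 (edgeR, adjusted p = 0.0085). The promoters of Asns and of Chac1 are shown because a response element for ATF4 and C/EBP factors lies close to the start site of the one and farther upstream in the other. Each is the 200 bases before the start site (RefSeq, GRCm38.p6; chr6:7693210-7693409 on the minus strand for Asns and chr2:119351042-119351241 on the plus strand for Chac1). Letters in capitals match TGATGNAA, on the printed strand for Asns and on the other strand for Chac1.
Asns: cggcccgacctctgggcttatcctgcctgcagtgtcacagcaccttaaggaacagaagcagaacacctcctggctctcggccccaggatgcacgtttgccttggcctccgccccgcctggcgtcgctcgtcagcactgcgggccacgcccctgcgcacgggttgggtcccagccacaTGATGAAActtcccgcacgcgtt
Chac1: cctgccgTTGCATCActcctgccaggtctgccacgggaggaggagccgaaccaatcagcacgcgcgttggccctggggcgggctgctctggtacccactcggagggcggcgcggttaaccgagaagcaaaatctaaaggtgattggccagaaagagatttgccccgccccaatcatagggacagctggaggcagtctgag

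Promoters from 250 bases before to 50 bases after the start site were at hand for 34 of the 39 members, not for Atf6, Derl1, Hyou1, Manf and Slc7a5. On either strand, TGATGNAA was found in 5 of the 34 (Asns, Chac1, Herpud1, Slc7a11 and Trib3), against 4.51% of 27025 genes with a promoter of the same length. Of these 5 genes, 4 fell, and Slc7a11 did not pass. A match is a run of letters and was not measured as a bound site, and elements outside this window, such as those in introns, were not searched.

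Of the 4 transporter genes, 1 passed with all libraries. Slc7a5, the light chain of the large neutral amino acid transporter LAT1, fell by 0.28 ± 0.10 on the log2 scale (edgeR, adjusted p = 0.034). That call was lost when any of the 6 Ctrl libraries or iKO 2, 4 or 5 was left out, with adjusted p-values from 0.052 to 0.086. Slc3a2, the heavy chain that joins Slc7a5 and Slc7a11 at the membrane, did not pass at -0.08 ± 0.06 (edgeR, adjusted p = 0.33), and neither did Slc7a1, a carrier of cationic amino acids, at -0.08 ± 0.11 (edgeR, adjusted p = 0.57). Slc7a1 was called in both directions under other settings. It was at -0.21 without iKO 1 and Ctrl 5 (edgeR, adjusted p = 0.047), at 0.56 with the leukocyte score as a covariate (0.044) and at 0.26 with libraries scaled to equal melanoma markers (0.036).

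Slc7a11, the cystine transporter xCT, was the most variable of the 39 genes among iKO libraries. It had 16.8, 33.5 and 93.2 CPM in iKO as lowest, median and highest, against 34.5, 52.4 and 56.8 CPM in Ctrl. The highest iKO value was in iKO 1, above every Ctrl library, and the lowest Ctrl value was in Ctrl 5. Its log2 fold change was -0.33 ± 0.38 with all libraries (edgeR, adjusted p = 0.51). Without iKO 1 it was -0.77 (adjusted p = 0.025), and without both iKO 1 and Ctrl 5 it was -0.84 (adjusted p = 0.016).

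**Figure D3:**
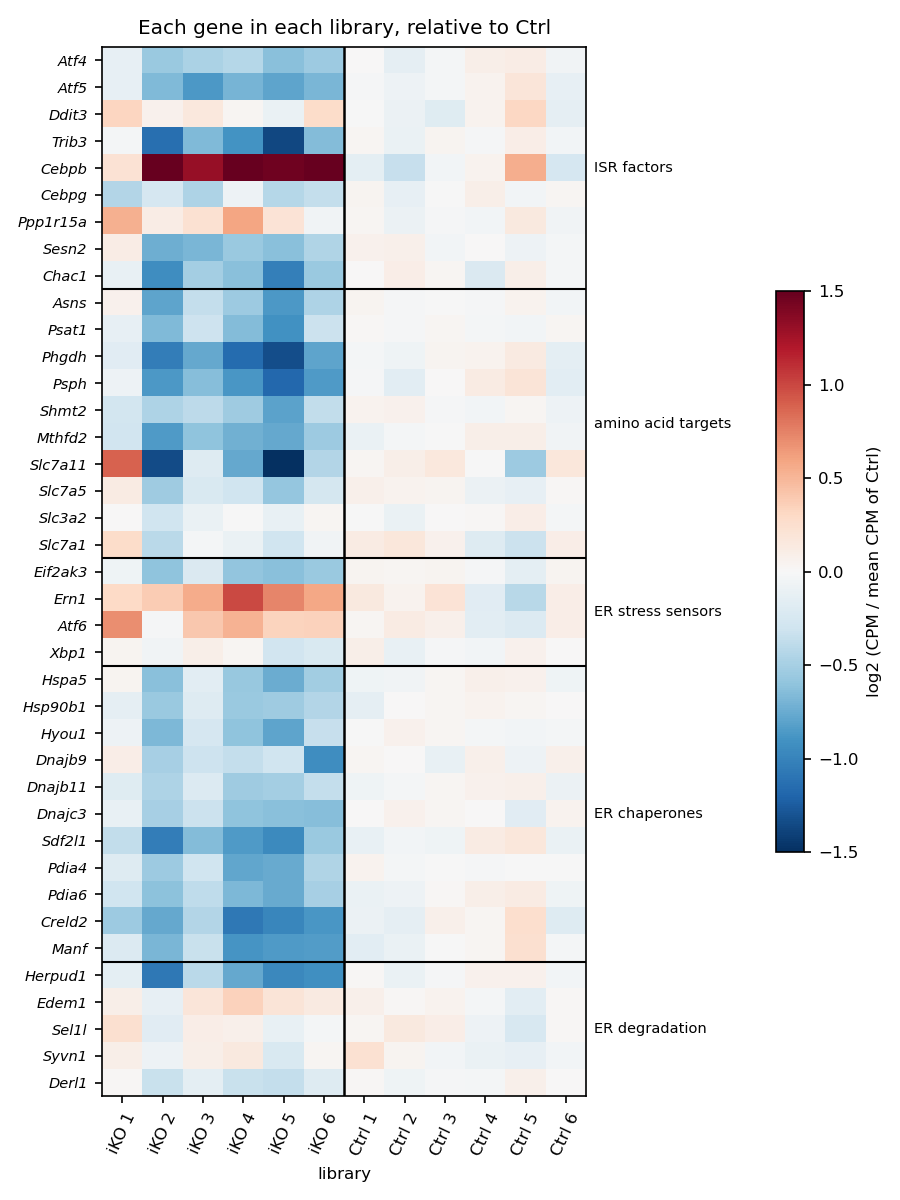
Each of the 39 genes (rows, by role) in each library (columns, 6 iKO then 6 Ctrl), coloured by log2 of its CPM over the mean CPM of Ctrl, with the most extreme values drawn in the end colours of the scale. Blue fills most of the amino acid and chaperone rows from iKO 2 to iKO 6, with Slc3a2 and Slc7a1 paler, and iKO 1 is pale in most of them. Cebpb, Ern1 and Atf6 are red in most iKO libraries.

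The 4 sensors and effectors of ER stress split, with 2 rises, 1 fall and 1 gene that did not pass, and a median log2 fold change of 0.17. Rises made up 25% of all tested genes and falls 21.4%. Ern1, which encodes the IRE1 kinase and ribonuclease, had 61.1, 73.3 and 98.7 CPM in iKO as lowest, median and highest, against 37.1, 52.1 and 57.2 CPM in Ctrl. Every iKO library, iKO 1 included, lay above every Ctrl library. Ern1 rose by 0.61 ± 0.12 on the log2 scale (edgeR, adjusted p = 0.0015).

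Atf6, the gene of the membrane-bound transcription factor, had 142, 186 and 232 CPM in iKO, against 124, 149 and 157 CPM in Ctrl, as lowest, median and highest. Only iKO 2 lay within the Ctrl range, and iKO 1 was the highest of all. Its log2 fold change was 0.40 ± 0.10 (edgeR, adjusted p = 0.0055). Eif2ak3, the gene of PERK, went the other way, with 46.9, 49.0 and 69.7 CPM in iKO against 65.9, 74.2 and 75.0 CPM in Ctrl. The overlap came from iKO 1, the highest iKO library, and Ctrl 5, the lowest Ctrl library. Eif2ak3 changed by -0.43 ± 0.10 (edgeR, adjusted p = 0.0026).

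Xbp1, the factor that IRE1 activates by splicing its RNA, showed no call in total RNA. It had 108, 131 and 140.3 CPM in iKO as lowest, median and highest, against 123, 132 and 140.2 CPM in Ctrl. The groups overlapped, with iKO 5 and iKO 6 below the Ctrl range. The log2 fold change was -0.06 ± 0.07 (edgeR, adjusted p = 0.48).

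All 11 ER chaperones and folding genes fell, against 21.4% of all tested genes. The 11 had log2 fold changes from -0.76 to -0.35 and a median of -0.45. By mean level, 29% of all genes with 10 to 100 CPM fell, 37.4% of those with 100 to 1000 CPM and 55.1% of those above. Every iKO library lay below every Ctrl library in 8 of the 11, against 11.1% of all tested genes. The summed level of the 11 was 3153 to 4706 CPM in iKO and 4845 to 5278 CPM in Ctrl, so the sums did not overlap. iKO 1 had the highest iKO sum and iKO 3 the next, 4303 CPM, while the 4 other iKO libraries were at 3605 CPM or less.

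Hspa5 encodes BiP, the main chaperone of the ER lumen and the partner that holds the sensors inactive. It had 936, 1078 and 1614 CPM in iKO as lowest, median and highest, against 1501, 1563 and 1656 CPM in Ctrl. iKO 1 lay inside the Ctrl range and the 5 other iKO libraries lay below it. Hspa5 changed by -0.40 ± 0.12 (edgeR, adjusted p = 0.011). Per kilobase it had the highest level of the 39 genes, 281 CPM in iKO and 372 CPM in Ctrl, followed by Hsp90b1, the ER form of HSP90, with 228 CPM in iKO and 299 CPM in Ctrl.

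The largest falls of this group were in Creld2, Sdf2l1 and Manf rather than in BiP. Creld2, an ER-resident protein with disulphide isomerase activity, had 55.7, 66.5 and 86.2 CPM in iKO as lowest, median and highest, against 103, 115 and 139.6 CPM in Ctrl. Its groups were apart, and the highest iKO library was iKO 3 rather than iKO 1. The log2 fold change was -0.76 ± 0.11 (edgeR, adjusted p = 0.00012).

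Sdf2l1, a cofactor of BiP, had 49.2, 60.0 and 78.0 CPM in iKO, against 93.3, 97.6 and 114 CPM in Ctrl, as lowest, median and highest. No iKO library reached the Ctrl range, and Sdf2l1 changed by -0.72 ± 0.10 (edgeR, adjusted p = 0.00013). Manf, a secreted ER stress protein that binds BiP, changed by -0.60 ± 0.12 (edgeR, adjusted p = 0.0013), with its groups apart as well.

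Among the protein disulphide isomerases, which form and rearrange disulphide bonds, Pdia6 had 367, 423 and 504 CPM in iKO as lowest, median and highest, against 577, 611 and 677 CPM in Ctrl. Pdia4 had 275, 333 and 410.1 CPM in iKO, against 463, 468 and 488 CPM in Ctrl. For both, all 6 iKO libraries lay below all 6 Ctrl libraries. Pdia6 changed by -0.53 ± 0.08 (edgeR, adjusted p = 0.00017) and Pdia4 by -0.49 ± 0.09 (edgeR, adjusted p = 0.00067).

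The J-domain partners of BiP also fell. Dnajc3, which also inhibits eIF2 kinases, changed by -0.45 ± 0.09, Dnajb11 by -0.37 ± 0.07 and Dnajb9, which also restrains IRE1, by -0.35 ± 0.12 (edgeR, adjusted p = 0.00098, 0.00074 and 0.032). The Dnajb9 call was lost without iKO 2, iKO 4 or any of the 6 Ctrl libraries, with adjusted p-values from 0.055 to 0.091. Hyou1, a large HSP70-like chaperone that exchanges nucleotide on BiP, changed by -0.44 ± 0.10 and Hsp90b1 by -0.39 ± 0.08 (edgeR, adjusted p = 0.0035 and 0.0014). Of the exon bases of Hsp90b1, 15.7% are shared with 1810014B01Rik on the opposite strand.

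The promoters of Hspa5, Creld2 and Herpud1 are shown because they carry elements that ATF6 and XBP1 are known to use. Each is the 200 bases before the start site on the plus strand (RefSeq, GRCm38.p6), at chr2:34771890-34772089 for Hspa5, chr15:88819446-88819645 for Creld2 and chr8:94386229-94386428 for Herpud1. In Hspa5 and Creld2 the capitals mark the ER stress response element, which is CCAAT, 9 bases of any kind, then CCACG, and which lies on the other strand in Creld2. In Herpud1 they mark TGATGNAA on the other strand and, downstream of it, ERSE-II, which is ATTGG, any base, then CCACG.
Hspa5: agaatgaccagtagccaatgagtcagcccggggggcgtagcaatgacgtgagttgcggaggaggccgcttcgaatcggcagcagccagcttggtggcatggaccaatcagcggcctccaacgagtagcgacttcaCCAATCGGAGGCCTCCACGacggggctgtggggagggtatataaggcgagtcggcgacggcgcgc
Creld2: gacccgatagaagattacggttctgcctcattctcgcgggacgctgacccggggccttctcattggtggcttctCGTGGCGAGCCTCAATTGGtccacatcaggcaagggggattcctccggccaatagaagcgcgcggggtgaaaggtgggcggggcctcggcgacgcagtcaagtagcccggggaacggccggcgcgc
Herpud1: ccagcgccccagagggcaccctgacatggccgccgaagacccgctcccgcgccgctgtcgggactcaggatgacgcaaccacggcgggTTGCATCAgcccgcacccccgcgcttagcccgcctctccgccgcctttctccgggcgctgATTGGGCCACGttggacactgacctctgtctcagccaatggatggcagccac

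The ER stress response element was found in 6 of the 34 member promoters, in 5 of 9 chaperones (Creld2, Dnajc3, Hsp90b1, Hspa5 and Pdia6) and in Syvn1, against 0.137% of 27025 genes. ERSE-II was found in Dnajb11 and Herpud1, against 0.0444%, and the unfolded protein response element TGACGTGG in none of the 34, against 0.714%. These 8 genes with either ER element had log2 fold changes from -0.76 to 0.02, with 7 falls and Syvn1 without a call. The 22 matched members with none of the elements searched ranged from -0.82 to 1.47, with 13 falls and 3 rises, so falls were found with and without a match in this window.

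ER-associated degradation returns misfolded proteins to the cytosol for the proteasome. Of its 5 genes 2 fell and 3 did not pass, with a median log2 fold change of 0.02. Over all tested genes 21.4% fell, and 37.4% of those with a mean of 100 to 1000 CPM. The difference between these genes and the chaperones was not tested. Herpud1, a membrane protein of the retrotranslocation complex that is strongly induced by ER stress, had 79.2, 92.5 and 150.4 CPM in iKO as lowest, median and highest, against 155, 166 and 174 CPM in Ctrl. Its groups were apart, with iKO 1 near the lowest Ctrl value, and it changed by -0.67 ± 0.14 (edgeR, adjusted p = 0.0017).

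Derl1, a derlin of the retrotranslocation channel, had 164, 175 and 212 CPM in iKO, against 201, 209 and 222 CPM in Ctrl, as lowest, median and highest. iKO 1 overlapped with Ctrl and the other iKO libraries did not. Derl1 changed by -0.22 ± 0.07 (edgeR, adjusted p = 0.014), and the call was lost without Ctrl 5 (adjusted p = 0.054).

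The core of the ubiquitin ligase complex did not pass. Sel1l, its adaptor, was at 0.02 ± 0.08 and Syvn1, the ligase HRD1, at 0.02 ± 0.07 (edgeR, adjusted p = 0.83 and 0.88). Edem1, a lectin that delivers glycoproteins for degradation, was at 0.14 ± 0.07 (edgeR, adjusted p = 0.11), with 5 of 6 iKO libraries above all Ctrl libraries. Without iKO 2, its log2 fold change was 0.19 and the adjusted p was 0.025.

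The falls were shared by 5 of the iKO libraries and much smaller in the other. Of the 39 members, 30, 28, 27, 31 and 28 lay below every Ctrl library in iKO 2 to iKO 6, taken in order, against 15 in iKO 1. Of the 27 that fell, iKO 1 was above each of iKO 2 to iKO 6 in 25, and in 12 it was at or above the lowest Ctrl library. Ctrl 5 was above all of iKO 2 to iKO 6 in all 27. In 26 of the 27, those 5 iKO libraries all lay below every Ctrl library. The 27 were called lower from these same libraries, and iKO 1 was set apart after its values were seen. Separation of the other 5 from Ctrl was therefore partly built in and is no further evidence for the falls. The counts of this paragraph were not made over all tested genes, so they have no background share beside them.

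Leukocyte markers and melanoma markers moved with these genes. iKO 1, whose leukocyte sum lay within the Ctrl range, had amino acid, chaperone and melanoma sums closer to Ctrl than any of the 5 other iKO libraries did. Those 5 had leukocyte sums of 1220 to 2360 CPM. All 8 T cell markers passed as higher, with sums of 16.9 to 195 CPM in iKO and 3.82 to 9.35 CPM in Ctrl, as did 6 of 7 macrophage markers, with 209 to 1744 CPM in iKO and 15.98 to 389 CPM in Ctrl. Plasma cells carry a large ER, and both of their testable markers, Ighm and Igkc, passed as higher. Of the 7 plasma cell markers, Tnfrsf17 and Iglc2 were at 0 in all Ctrl libraries, and the 7 summed to between 2.52 and 27.4 CPM in iKO against 0.0935 to 2.65 CPM in Ctrl. Ighm, which B cells also carry, averaged 14.3 CPM of a mean sum of 16.9 CPM in iKO. The plasma cell genes Mzb1 and Jchain had 53 and 35 counts over the 6 iKO libraries, against 54 and 16 over the 6 Ctrl libraries. Of the 6 endothelial markers 3 passed as higher, with sums of 13.7 to 51.0 CPM in iKO and 11.5 to 15.3 CPM in Ctrl. Of the 6 fibroblast markers 1 did, with 415 to 9515 CPM in iKO and 1443 to 1674 CPM in Ctrl. The 3 testable keratinocyte markers of 5 passed as higher, with sums over the 5 of 5.25 to 149.8 CPM in iKO and 1.78 to 2.87 CPM in Ctrl, and Krt1 was at 0 in all Ctrl libraries. The share of counts from mitochondrial genes was 1.3 to 2.02% in iKO 2 to iKO 6 and 0.996% in iKO 1, against 1.03 to 1.4% in Ctrl. The part of this share, and of the plasma cell, endothelial, fibroblast and keratinocyte markers, in the member results was not tested.

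**Figure D4:**
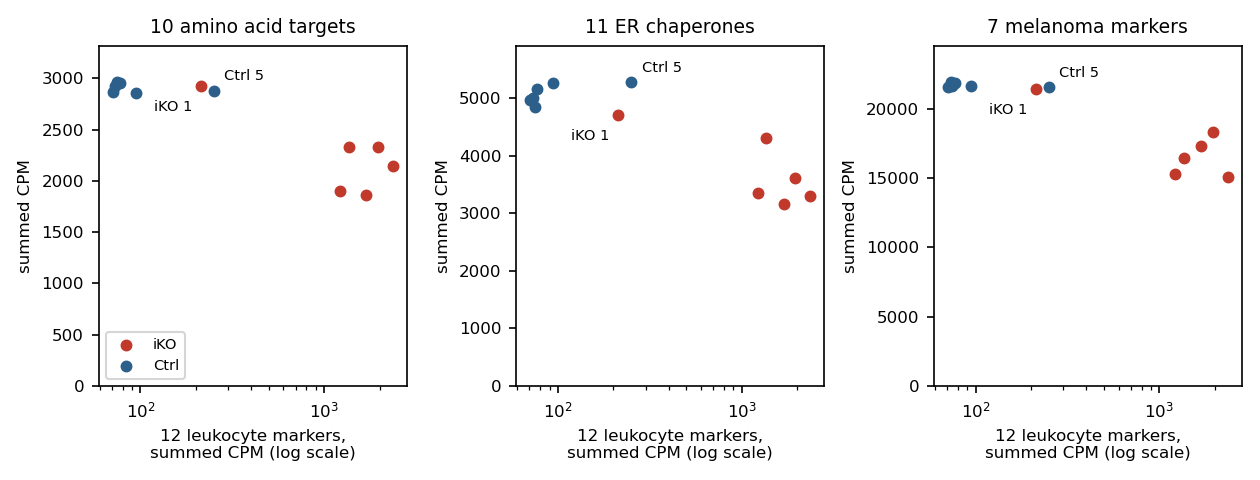
Summed CPM of the 10 amino acid targets, the 11 ER chaperones and the 7 melanoma markers (y axes, from 0) against the summed CPM of 12 leukocyte markers (x axis, log scale), 1 dot a library. iKO 1 lies next to Ctrl 5 in leukocyte sum and near the Ctrl libraries in the other sums, while iKO 2 to iKO 6 lie to the right and lower.

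With the leukocyte score as a covariate, 1 member (Creld2) passed as lower and 3 (Atf6, Slc7a1 and Sel1l) as higher, and the median over members was -0.13. That fit called 957 genes lower and 913 higher in the whole table. The score nearly followed the groups, with only iKO 1 and Ctrl 5 between them. The other leukocyte sums were 1220 to 2360 CPM in iKO and 70.7 to 94.2 CPM in Ctrl. The group effect in that fit thus rests largely on iKO 1 and Ctrl 5. A call lost there cannot tell leukocyte content from host genotype. With libraries scaled to equal melanoma markers, an alternative chosen after seeing the data, the median over all genes was 0.38 and that over members -0.09. That scaling called 338 of the 16164 tested genes lower and 8096 higher. Of the 39 members, 9 passed as lower (Atf5, Trib3, Phgdh, Psph, Mthfd2, Sdf2l1, Creld2, Manf and Herpud1) and 11 as higher. The 11 were the 4 called rises with all libraries and Ddit3, Slc3a2, Slc7a1, Xbp1, Edem1, Sel1l and Syvn1. Without iKO 1 and Ctrl 5, 29 members fell and 5 rose, and without iKO 2 and iKO 3, 25 fell and 5 rose. Over all genes, the first of these fits called 3331 lower and 4431 higher of 16429 tested. The second called 2965 lower and 3570 higher of 16511.

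Beyond the 39 genes, 8 related lists of 120 genes were read in the same fit, of which 119 were tested, 60 fell and 5 rose. These are 50.4% and 4.2%, against 21.4% and 25% of all tested genes. With the leukocyte score as a covariate 5 fell and 3 rose, against 957 and 913 of all 16164 tested genes. With libraries scaled to equal melanoma markers 7 fell and 43 rose, against 338 and 8096 of the 16164. These values over all genes are the background for each list below under the same setting. On the amino acid side, 8 of 12 aminoacyl-tRNA synthetases, which charge tRNAs and include known ATF4 targets, fell and none rose, with a median log2 fold change of -0.27. None of the 12 passed with the leukocyte score as a covariate (median -0.08), and scaled to melanoma markers none fell and 2 rose (median 0.08). The smallest p-values were for Cars (-0.30), Gars (-0.42) and Yars (-0.27), the enzymes for cysteine, glycine and tyrosine (edgeR, adjusted p = 0.0015, 0.0022 and 0.0023). Of 15 other amino acid targets 7 fell and none rose, with a median of -0.25. Under the leukocyte covariate none passed, and scaled to melanoma markers 4 fell and 2 rose. The smallest p-values were for Gpt2, an alanine aminotransferase (-0.66), Slc1a4, a carrier of neutral amino acids (-0.62), and Aldh18a1 of proline synthesis (-0.36; edgeR, adjusted p = 0.00077, 0.0035 and 0.0036).

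Other targets of the integrated stress response were mixed, with a median of -0.20. Against 21.4% falls and 25% rises over all tested genes, 6 of the 12 fell and 1 rose. The rise was Atf3, a stress factor that immune and interferon signals also induce, with 78.5, 125 and 170 CPM in iKO as lowest, median and highest, against 38.5, 41.2 and 55.6 CPM in Ctrl. Its groups were apart, and it rose by 1.50 ± 0.18 (edgeR, adjusted p = 5.4e-05). With the leukocyte score as a covariate Atf3 was at 0.48 and had no call (edgeR, adjusted p = 0.21). Vldlr, a lipoprotein receptor, and Jdp2, a repressor of the AP-1 family, fell, with log2 fold changes of -0.71 and -0.33 (edgeR, adjusted p = 0.00065 and 0.00055). Under the leukocyte covariate 1 of the 12 fell and none rose, and scaled to melanoma markers 2 fell and 3 rose.

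Of 13 genes of the eIF2 machinery 5 (38.5%) fell and 2 (15.4%) rose, with a median of -0.15. Over all tested genes 21.4% fell, 37.4% of those with a mean of 100 to 1000 CPM, and 25% rose. Under the leukocyte covariate none of the 13 fell and 1 rose, and scaled to melanoma markers none fell and 6 rose. Eif2ak2, the double-stranded RNA kinase PKR, which interferon induces, had 118, 141 and 152 CPM in iKO as lowest, median and highest, against 51.6, 58.8 and 65.2 CPM in Ctrl. The groups were far apart, iKO 1 included, and Eif2ak2 rose by 1.22 ± 0.07 (edgeR, adjusted p = 5.3e-08). With the leukocyte score as a covariate it was at 1.28 and kept its call (edgeR, adjusted p = 0.0011). Eif2b1, a subunit of the exchange factor of eIF2, and Eif2s1, the subunit that the kinases phosphorylate, changed by -0.31 and -0.27 (edgeR, adjusted p = 0.0023 and 0.0032). Of the 4 eIF2 kinases, then, PKR rose most, the amino acid sensor GCN2 (Eif2ak4) rose by 0.16 ± 0.06 (edgeR, adjusted p = 0.029), PERK fell and the haem-regulated kinase (Eif2ak1) was at 0.07 ± 0.06 (edgeR, adjusted p = 0.36). With that covariate Eif2ak4 had no call (0.31; edgeR, adjusted p = 0.13), nor did PERK.

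On the ER side, 11 of 18 other folding genes fell and 1, Ero1lb, rose, against 21.4% and 25% of all tested genes. The median of the 18 was -0.25. Under the leukocyte covariate 2 of them fell and none rose, and scaled to melanoma markers 1 fell and 7 rose. The smallest p-values were for Fkbp11, a prolyl isomerase (-0.72), Pdia5, a disulphide isomerase (-0.49), and Calr, the lectin chaperone calreticulin (-0.27; edgeR, adjusted p = 0.00042, 0.00098 and 0.0013). Genes of translocation and signal cleavage, which bring new proteins into the ER, fell in 16 of 20 cases and rose in none, with a median of -0.34. With the leukocyte score as a covariate 1 of them fell, and scaled to melanoma markers none fell and 5 rose (median 0.0056). The smallest p-values were for Spcs2 and Sec11a of the signal peptidase and Ssr2 of the translocon-associated complex (-0.48, -0.43 and -0.51; edgeR, adjusted p = 0.00024, 0.00051 and 0.00044).

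Of 19 other degradation genes 6 (31.6%) fell and 1 (5.26%) rose, with a median of -0.11, against 21.4% and 25% of all tested genes. Under the leukocyte covariate 1 fell and 1 rose, and scaled to melanoma markers none fell and 12 rose. Ube2g2, a ubiquitin-conjugating enzyme (-0.27), Selenok, a selenoprotein of the ER membrane (-0.34), and Rnf5, a ubiquitin ligase (-0.33), had the smallest p-values (edgeR, adjusted p = 0.0031, 0.0088 and 0.0095). Of 10 tested regulators of the unfolded protein response 1 fell, the ubiquitin-like modifier Ufm1 (-0.27; edgeR, adjusted p = 0.0079), and the median was -0.09. Under the leukocyte covariate none fell and 1 rose, and scaled to melanoma markers none fell and 6 rose. As among the members, the main analysis had lower shares of falls in the degradation and regulator lists than in the folding and translocation lists. This is a description with no test of the difference.

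**Figure D5:**
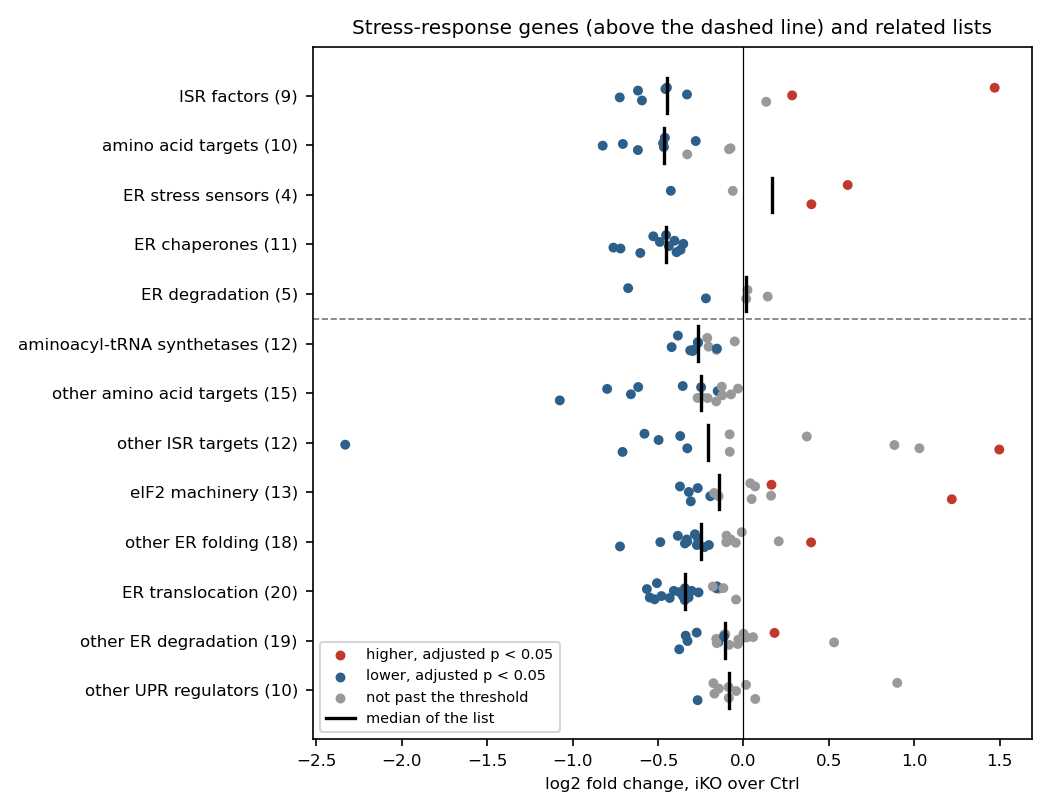
Log2 fold change (x axis, iKO over Ctrl) of each tested gene in the 5 role groups of the 39 members and in 8 related lists, with the number tested in brackets, colour for the call and a black bar for the median of each list. Medians lie left of 0 except for ER stress sensors (0.17) and ER degradation (0.02), and the rightmost called points are Atf3, Cebpb and Eif2ak2.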

How the data were processed

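The deposited table held raw counts of reads per gene for 12 bulk libraries, which the authors had not normalized. The submitters' processing notes name mm10 as genome build. The sources used here name no aligner or counter. Libraries were poly-A selected and kept no strand, per the labels' protocols, so reads of genes that overlap on opposite strands cannot be told apart. The cell type label says negative for CD45 and CD31, and the protocol says negative for either. The labels also name a single-cell source, while the table has 1 column a library.

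Counts were tested with edgeR 4.0.16 (R 4.3.3; quasi-likelihood, robust, TMM) on all 12 libraries with group as the only term. Genes were filtered at a minimum count of 10 and a minimum total of 15, and p-values were Benjamini-Hochberg adjusted over 16164 genes with a threshold of 0.05. The SE is approximate: the absolute log2 fold change divided by the root of the test's F value. CPM are TMM-scaled. Alternatives used limma 3.58.1, DESeq2 1.42.0, other scalings, covariates and left-out libraries. No pair of libraries in a group was alike within sampling noise (chi-square per degree of freedom at least 7.47).

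The members, role groups, related lists, markers and alternatives were chosen with earlier results of these data known. Named with full values were Atf4, Ddit3, Hspa5, Xbp1 and up to 4 members a role group with the smallest p among those called. Up to 3 such genes were named for each related list. Slc7a11, Atf3 and Eif2ak2 have full values, and Asns, Trib3, Sesn2, Slc7a1, Ero1lb, Eif2ak4 and Eif2ak1 are described further, because of values already seen. Exon overlaps are from GENCODE M21, where all 39 members had the table's coordinates. Promoters are from RefSeq (GRCm38.p6).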

Additional observations from a re-analysis of the deposited data

Results flagged for a closer look

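In 9 of 78 sets of 6 values (39 genes in 2 groups), 1 library lay far from the others of its group, with a gap beyond the critical value of Dixon's test; chance flags about 1 set in 20. iKO 1 was far above the other iKO libraries for Atf4 (482 CPM), Atf5 (109 CPM), Sesn2 (69.1 CPM) and Slc7a11 (93.2 CPM). Ctrl 5 was far below the other Ctrl libraries for Dnajc3 (199 CPM), Eif2ak3 (65.9 CPM) and Slc7a11 (34.5 CPM). Ctrl 1 was far below for Hsp90b1 (1102 CPM) and far above for Pdia4 (488 CPM). iKO 1 and Ctrl 5 are the libraries whose leukocyte sums, 213 and 250 CPM, lay next to each other.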

How the results depend on the processing

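Of the members, 27 fell and 4 rose in the main analysis. Under RLE scaling, DESeq2, limma voom and the replicate block the same 27 and 4 passed, and under library totals, upper-quartile scaling or no filter the same 27 fell and 3 of the 4 rose, Ppp1r15a being lost. Leaving out each library in turn gave 24 to 28 falls and 3 to 5 rises over members, 6 to 8 falls among amino acid targets, and 11 to 13 falls and 0 to 1 rises among ER chaperone and degradation genes. Without iKO 2 and iKO 3 that last list had 1 rise (Edem1). Over all tested genes, the fits without 1 library gave 2671 to 3750 falls and 3707 to 4484 rises. Replicate numbers did not pair the libraries (correlation of same-numbered deviations -0.129 to 0.249, over 0.1 in 2 of 6 pairs, best with its own number in 1 of 6). With the replicate block, 3489 genes rose and 2984 fell over the table.

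With the leukocyte score as a covariate, 913 genes rose and 957 fell; 1 member fell; amino acid targets had 1 rise and 0 falls, and ER chaperone and degradation genes 1 of each. Log2 fold changes of the other sign were then Cebpb -0.17, Ddit3 -0.024, Dnajb9 0.085, Dnajc3 0.029, Eif2ak3 0.044, Sesn2 0.074, Slc7a1 0.56, Slc7a11 1.22 and Slc7a5 0.18. Scaled to melanoma markers, 8096 genes rose and 338 fell; members had 11 rises and 9 falls, amino acid targets 2 and 3, and ER chaperone and degradation genes 3 and 4. Rises made 96% of calls there and 53.8% in the main analysis. Of the other sign were Cebpg 0.037, Derl1 0.12, Slc3a2 0.28, Slc7a1 0.26, Slc7a5 0.058 and Xbp1 0.29. The causes of these differences were not tested.

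Sel1l and Syvn1, both without a call in the main analysis, were called higher when scaled to melanoma markers (both 0.37), and Sel1l with the covariate (0.45). They turned to -0.0036 and -0.012 under library totals, -0.0385 and -0.048 under upper-quartile scaling, -0.0325 and -0.041 with no filter, and -0.0515 and -0.005 without iKO 1 and Ctrl 5. Without 1 library, Sel1l ranged from -0.027 to 0.074 and Syvn1 from -0.012 to 0.065. Depth set no limit on testing these genes, since all 39 passed the filter.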
